A study of Mus musculus with 8 samples.

Results

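The sarcomere, Z-disc and M-band module is a given list of 32 mouse genes for thin filament proteins, ventricular myosin light chains, titin and its partners, Z-disc proteins, titin-binding stress sensors and myosin chaperones. The list was chosen by gene function and not by a threshold on the counts, though earlier results of these data were known. Shares of the list set beside those of all genes below are therefore descriptions and not tests. All 32 genes were found by symbol among the 55487 genes of the deposited count table, and all 32 were among the 13648 genes that passed the filter on low counts. The samples were 8 RNA-seq libraries from hearts of db/db mice, a strain that lacks a working leptin receptor and becomes obese and diabetic. In 4 libraries the mice had received vehicle, and in 4 they had received DIZE, short for diminazene aceturate, a compound used to activate angiotensin-converting enzyme 2. All 8 libraries carried the db/db genotype, so the comparison was between 2 treatments of diabetic mice, with no non-diabetic heart and no untreated heart. Neither dose, duration, age nor sex is stated in the labels.

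The sarcomere is the contractile unit of striated muscle. Actin thin filaments are anchored in the Z-disc by alpha-actinin, and myosin thick filaments are crosslinked in the M-band by myomesins. Titin spans from Z-disc to M-band as a spring, and troponin and tropomyosin make the thin filament respond to calcium. Proteins of the Z-disc and of titin's spring region also take part in mechanical signalling, and chaperones fold and assemble myosin.

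Total counts ranged from 7447664 to 10161623 per library, and the 32 genes together took between 4.15% and 4.84% of them. No pair of libraries agreed within sampling noise, since the most alike pair, DIZE 3 and DIZE 4, gave a chi-square of 5.06 per degree of freedom. Whether the libraries of a group stem from different animals is not stated, so the p-values here reflect how far these libraries differ, and that variation may be technical. In RNA from whole tissue, fewer myocytes and less RNA per myocyte cannot be told apart. The 6 cardiac myocyte markers, which do not tell ventricle from atrium, summed to between 19850 and 37490 CPM, with vehicle 1 lowest. CPM is a read count scaled to the size of its library. Vehicle 1 was lowest for Myh6, Actc1, Ryr2 and Mybpc3. Its Tnni3 and Pln, at 2383 and 985 CPM, lay within the range of the other libraries. So did its Myl2 and Myl3, the ventricular light chains of the list, at 3545 and 2858 CPM. The 9 fast skeletal muscle markers summed to at most 4.68 CPM, with Myh4 at 0 in every library. The 6 atrial markers, Myl7 among them, summed to 854 CPM in vehicle 1, 35.8 to 345 CPM in vehicle 2 to 4, and 13.9 to 137 CPM across the DIZE libraries. Vehicle 1 also had the highest summed fibroblast markers (2127 CPM, against 1146 to 1544 in the other 7) and macrophage markers (568 CPM, against 328 to 405), while vehicle 2 held 1661 CPM of hepatocyte markers. Of the fibroblast markers, Dcn alone held 1462 CPM in vehicle 1. Pdgfra, Tcf21, Lum and Ddr2 were also highest there, but Col1a1 was lowest there (45.2 CPM) and Col1a2 was within the range of the others. Of the macrophage markers, all but Csf1r were highest in vehicle 1. The 6 erythroid markers separated the treatments, with sums of 101 to 210 CPM in the vehicle libraries and 8.95 to 78.5 CPM in the DIZE libraries. All 5 of them that were tested lay lower with DIZE, with a median log2 fold change of -1.79 and 0 called, and their part in the results below was not tested.

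None of the 32 genes passed the test between DIZE and vehicle, an edgeR quasi-likelihood test with Benjamini-Hochberg adjusted p at most 0.05. Over all 13648 genes 5 passed, which is 0.0366%. The smallest adjusted p among the 32 was 0.14, for Capzb. DESeq2 called 1 of the 32, Capzb at an adjusted p of 0.0312, where it called 4.44% of all genes. At an unadjusted p of at most 0.05, 10 of the 32 genes (31.2%) were reached, against 2647 of all genes (19.4%). In simulated counts of the same size the edgeR test recovered 17.9% of genes changed 1.5-fold and 67.5% of genes changed 2-fold. The fitted log2 fold changes of the 32 genes lay between -0.33 and 0.70.

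The log2 fold change of DIZE over vehicle was above 0 for 20 of the 32 genes and below 0 for 12, so 62.5% lay higher, against 48.2% of all genes tested. Its median over the 32 was 0.12, against -0.01 over all genes tested. Leaving out 1 library moved that median from 0.12 to 0.06 without DIZE 2, and to 0.19 without vehicle 2. Of the 32 genes, 22 had transcripts of at least 50% GC. Their median was 0.25, against 0.10 over all genes of such GC content. The other 10 had a median of -0.01, against -0.10 over all genes under 50% GC. For 6 of the 32 genes (18.8%) the 4 DIZE libraries and the 4 vehicle libraries did not overlap, against 12.4% of all genes. In 5 of these 6, DIZE lay above vehicle, namely Tmod1, Capzb, Mylk3, Actn2 and Flnc, where 7.17% of all genes did so. Nebl was the 1 gene whose DIZE libraries all lay below vehicle, as 5.26% of all genes did. For 8 of the 32 the log2 fold change was under 0.1 in size, and these included Myl2, Myl3, Tnnc1 and Tpm1.

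**Figure D1:**
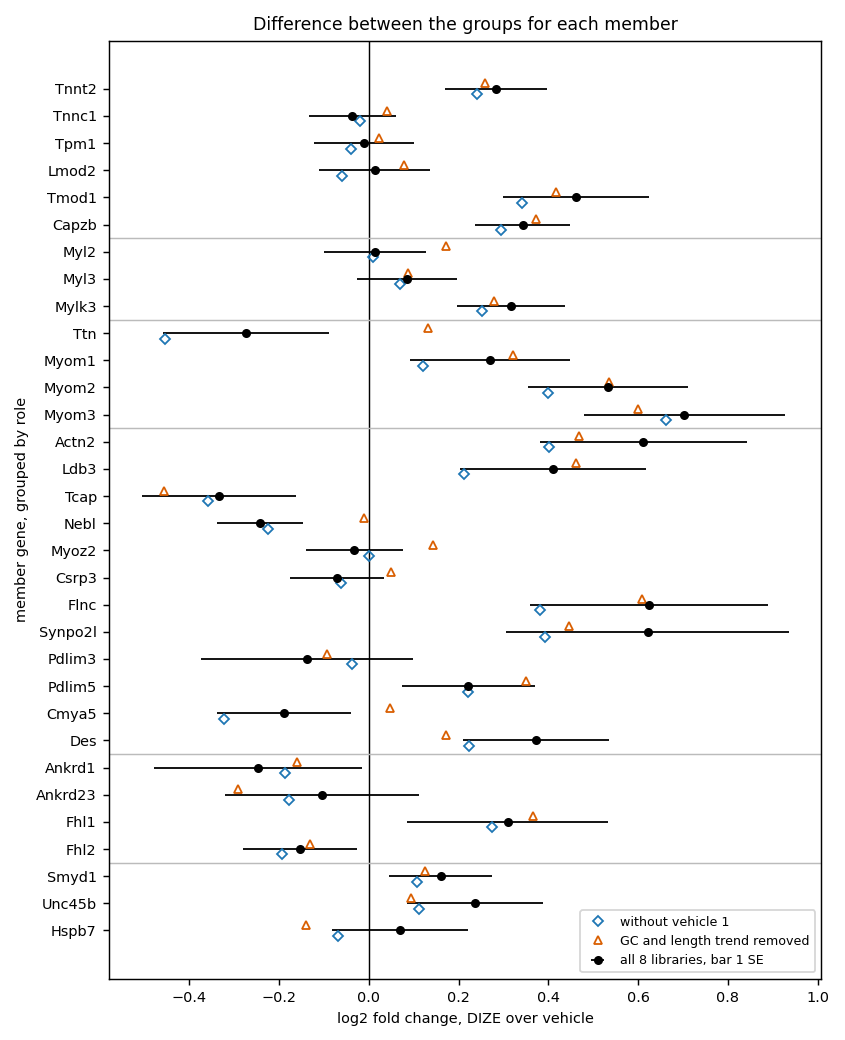
Log2 fold change of DIZE over vehicle for each of the 32 genes, grouped by role, with dots for the fit of all 8 libraries, bars of 1 SE, diamonds for the fit without vehicle 1 and triangles for the fit with the GC and length trend removed. Actn2, Flnc and Synpo2l lie nearer 0 without vehicle 1, Ttn lies farther below 0 without it, and Ttn lies above 0 once the GC and length trend is removed.

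Levels between genes were compared as CPM per kilobase of annotated transcript, to allow for the longer target that a long transcript offers. Tnnt2, cardiac troponin T, had the highest level at 5245 ± 726 CPM per kilobase (SD, n = 8). Next came Myl2, the ventricular regulatory light chain, at 4045 ± 374, and Myl3, the ventricular essential light chain, at 3249 ± 304 CPM per kilobase. Tnnc1, cardiac troponin C, followed at 2272 ± 125 and Tpm1, alpha-tropomyosin, at 1739 ± 146 CPM per kilobase. Ttn, which codes for the largest protein of the sarcomere, had more reads than most of the 32 genes but only 39.6 ± 8.84 CPM per kilobase. The annotated transcript used for Ttn is 100404 bases long. The counts do not show which form was read, so this level holds only for that length. The lowest levels were those of Ankrd23 at 2.65 ± 0.492 and Myom3 at 1.30 ± 0.442 CPM per kilobase. In this order most neighbours overlapped over the 8 libraries. The libraries of Myl3 all lay above those of Tnnc1, those of Tnnc1 above Tpm1, and those of Pdlim3 above Ankrd23, and no other neighbours were separate.

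**Figure D2:**
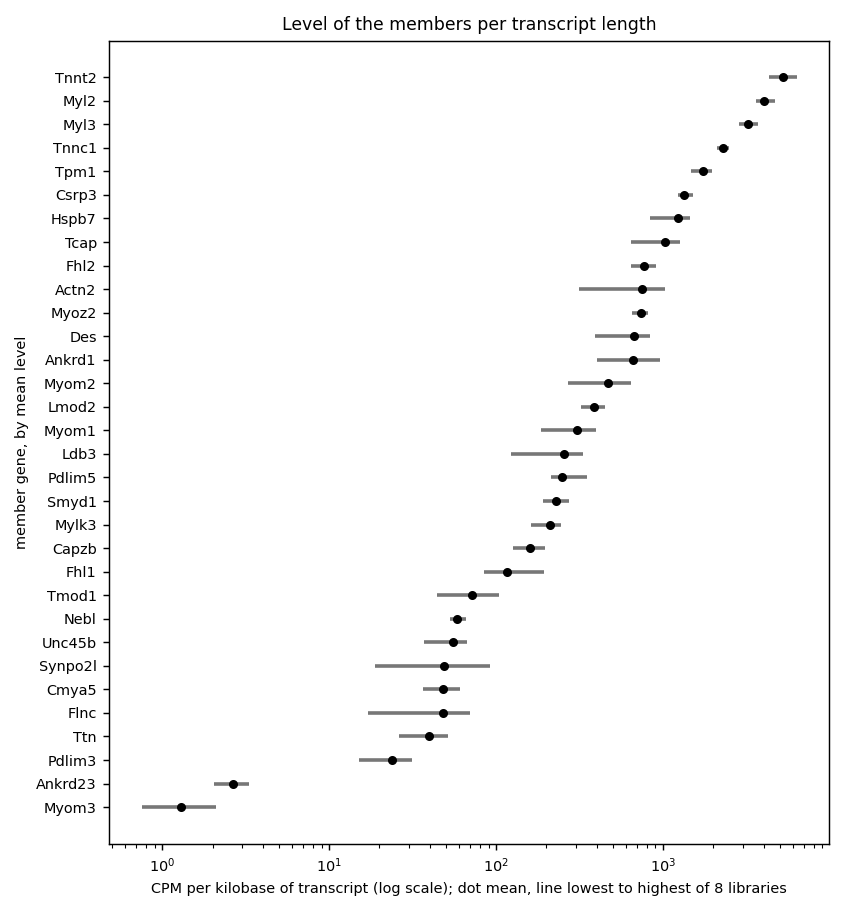
Level of the 32 genes in CPM per kilobase of transcript on a log axis, with dots for the mean and lines from the lowest to the highest of the 8 libraries. Tnnt2, Myl2 and Myl3 lie at the top, and Ankrd23 and Myom3 lie apart at the bottom.

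The 6 promoter sequences printed here belong to genes whose values are described below: Flnc, Mylk3 and Nebl, whose groups did not overlap, Myl3 for its high level, Fhl2 for a match near its start, and Ttn, whose direction depended on the processing. Each is the stretch of up to 250 bases upstream of a RefSeq transcript start on GRCm38.p6, 5′ to 3′ on the strand of the gene, without bases that the GENCODE annotation places in an exon. Capitals mark matches to the MEF2 element, the CArG box bound by serum response factor, or the M-CAT motif CATTCC, searched on both strands. The Flnc window is chr6:29433006-29433255 (+ strand), with CATTCC starting 104 bases before the start. For Mylk3 it is chr8:85365348-85365574 (- strand), with an M-CAT match 148 bases before the start, on the other strand. That of Nebl is chr2:17670166-17670415 (- strand), with CATTCC 230 bases before the start. The Myl3 window is chr9:110763428-110763645 (+ strand), with a CArG box 85 bases and M-CAT matches 149 and 177 bases before the start. That of Fhl2 is chr1:43163962-43164211 (- strand), with a CArG box 31 bases before the start, and that of Ttn is chr2:76982548-76982797 (- strand), with a MEF2 element 166 bases before the start. The printed windows of Flnc and Ttn lie outside the annotated gene, and those of Mylk3, Nebl, Myl3 and Fhl2 precede starts that lie inside the span of the gene. Every printed window holds a match. Flnc, Mylk3, Nebl and Fhl2 have further windows not printed here. Those of Flnc and Mylk3 and the outermost window of Nebl hold no match to these motifs. That of Fhl2 holds a MEF2 element and a CArG box. Of the other unprinted windows of Nebl, that from chr2:17462857 holds a CArG box and that from chr2:17526131 holds no match.
Flnc: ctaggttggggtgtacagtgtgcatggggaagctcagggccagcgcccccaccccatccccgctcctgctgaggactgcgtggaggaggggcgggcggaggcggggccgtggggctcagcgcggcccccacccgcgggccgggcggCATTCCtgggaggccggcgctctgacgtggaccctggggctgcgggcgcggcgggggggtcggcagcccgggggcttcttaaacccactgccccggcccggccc
Mylk3: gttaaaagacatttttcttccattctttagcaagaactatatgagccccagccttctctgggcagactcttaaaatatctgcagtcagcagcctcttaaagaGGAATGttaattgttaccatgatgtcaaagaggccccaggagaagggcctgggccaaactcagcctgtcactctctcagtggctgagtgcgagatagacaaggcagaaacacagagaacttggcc
Nebl: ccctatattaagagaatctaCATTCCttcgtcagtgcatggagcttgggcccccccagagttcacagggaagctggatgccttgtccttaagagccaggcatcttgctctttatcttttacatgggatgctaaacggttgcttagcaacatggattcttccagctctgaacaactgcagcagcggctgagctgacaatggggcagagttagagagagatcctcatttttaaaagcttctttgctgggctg
Myl3: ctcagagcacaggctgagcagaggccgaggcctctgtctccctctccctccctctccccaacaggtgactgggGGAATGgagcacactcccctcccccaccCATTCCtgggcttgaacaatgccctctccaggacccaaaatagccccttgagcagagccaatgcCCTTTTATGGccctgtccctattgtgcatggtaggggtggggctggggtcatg
Fhl2: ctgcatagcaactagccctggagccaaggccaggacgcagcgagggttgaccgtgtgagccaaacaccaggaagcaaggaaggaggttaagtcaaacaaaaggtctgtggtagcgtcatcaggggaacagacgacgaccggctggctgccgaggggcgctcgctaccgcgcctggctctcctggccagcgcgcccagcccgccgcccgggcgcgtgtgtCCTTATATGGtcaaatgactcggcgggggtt
Ttn: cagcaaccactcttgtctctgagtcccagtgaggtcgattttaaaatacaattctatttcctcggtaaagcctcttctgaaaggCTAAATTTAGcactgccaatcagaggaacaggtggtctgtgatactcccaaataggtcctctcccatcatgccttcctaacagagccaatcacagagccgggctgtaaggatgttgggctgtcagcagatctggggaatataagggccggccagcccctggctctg

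RefSeq promoter windows were found for 30 of the 32 genes, 44 windows in all, and Myom2 and Tcap had no entry. The CArG box was present in 8 of the 44 windows (18.2%), at Fhl1, Fhl2, Ldb3, Myl3, Myom1 and Nebl, against 1.47% of all 32851 promoter windows of that length. The MEF2 element was present in 6 (13.6%), at Fhl2, Myom3, Myoz2, Synpo2l and Ttn, against 2.92% of all windows. CATTCC was present in 11 (25%), against 12.6%, and the GATA motif AGATAA in 10 (22.7%), against 9.99%. TATAAA was present in 5 windows (11.4%) against 12.4% of all, and the E-box CAGCTG in 6 (13.6%) against 13%. In a second Fhl2 window the TATAAA match lay inside the MEF2 match. Windows of 1 gene can overlap each other, as those of Flnc and Ldb3 do, so they are not independent. The CArG box in both Ldb3 windows is the same site, counted in each. Of the 6 genes with no overlap between the groups, Actn2 and Capzb held no match to MEF2, CArG or M-CAT. A match describes letters in the window and says nothing of binding, and no match describes only this window.

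The thin filament and its capping proteins comprised Tnnt2, Tnnc1, Tpm1, Lmod2, Tmod1 and Capzb, of which 4 lay higher with DIZE and 2 lower, with a median log2 fold change of 0.15 and none called. Tmod1 (tropomodulin 1, chr4:46038935-46116032), which caps the pointed end of the thin filament, stood at 140, 193, 203 and 224 CPM in vehicle 1 to 4 and at 233, 330, 238 and 246 CPM in DIZE 1 to 4. All 4 DIZE libraries lay above all 4 vehicle libraries, with vehicle 1 low and DIZE 2 high. The means were 190 ± 35.5 and 262 ± 45.6 CPM (SD, n = 4 each), a log2 fold change of 0.46 ± 0.16 (SE; adjusted p = 0.17). The Tmod1 locus overlaps 1287 exon bases of Tstd2 on the other strand, which stood at 12.8 CPM. Capzb (chr4:139192899-139291818) encodes the beta subunit of the protein that caps the barbed end at the Z-disc. Its vehicle libraries held 215, 253, 246 and 242 CPM and its DIZE libraries 293, 335, 306 and 280 CPM. Here too every DIZE library lay above every vehicle library, and the spread within each group was small. The fold was 1.27, a log2 fold change of 0.34 ± 0.11 (SE; adjusted p = 0.14).

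Tnnt2 (chr1:135836354-135852260), the tropomyosin-binding troponin subunit, stood at 5175, 6748, 5192 and 5595 CPM with vehicle and at 6820, 7584, 6624 and 6612 CPM with DIZE. The groups overlapped only through vehicle 2, which lay above DIZE 3 and DIZE 4. Its log2 fold change was 0.28 ± 0.11 (SE; adjusted p = 0.21). The remaining 3 thin filament genes were close to equal in the groups. Tnnc1 and Tpm1 had log2 fold changes of -0.04 and -0.01, and Lmod2, leiomodin 2, which elongates thin filaments at the same end that Tmod1 caps, had 0.01. The sign of each of these 3 turned when 1 library was left out.

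Within a library, the ratio of Lmod2 to Tmod1 CPM does not depend on the scaling of that library. The ratio was 4.57, 4.11, 3.63 and 3.82 in the vehicle libraries and 2.96, 2.16, 3.22 and 3.59 in the DIZE libraries. All 4 DIZE values lay below all 4 vehicle values, with DIZE 2 lowest. The means were 4.03 ± 0.409 and 2.98 ± 0.606, and the two-sided exact permutation test gave p = 0.0286, the smallest that 4 against 4 allows, or 0.0858 adjusted over the 6 ratios computed. All 6 ratios were chosen after the values had been seen. Their p-values, here and below, therefore only describe how the libraries were ordered. A ratio shows unequal levels and not which gene moved.

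The ventricular light chains and their kinase comprised Myl2, Myl3 and Mylk3. Mylk3 (chr8:85324303-85386345), the cardiac kinase that phosphorylates the regulatory light chain, stood at 599, 757, 607 and 806 CPM with vehicle and at 822, 860, 864 and 900.4 CPM with DIZE. The DIZE libraries lay above the vehicle libraries, and vehicle 4 came close to DIZE 1. Its log2 fold change was 0.32 ± 0.12 (SE; adjusted p = 0.19). Both light chains, among the most abundant transcripts of the list, were close to equal in the groups. Myl2 (chr5:122100951-122113472) had 3545, 4191, 3378 and 3204 CPM with vehicle and 3790, 3883, 3466 and 3314 CPM with DIZE. Myl3 (chr9:110741861-110769798) had 2858, 3496, 2784 and 2681 CPM with vehicle and 3190, 3328, 3120 and 2896 CPM with DIZE. For both, the highest library was vehicle 2, and the groups overlapped. The log2 fold change was 0.01 ± 0.11 for Myl2 and 0.08 ± 0.11 for Myl3 (SE). The ratio of Myl2 to Myl3 was between 1.195 and 1.24 in the vehicle libraries and between 1.111 and 1.188 in the DIZE libraries. These ranges did not overlap but differed by little, with means of 1.21 ± 0.0205 and 1.15 ± 0.033 (exact permutation p = 0.0286, adjusted 0.0858). This pair, too, was chosen after the values had been seen.

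**Figure D3:**
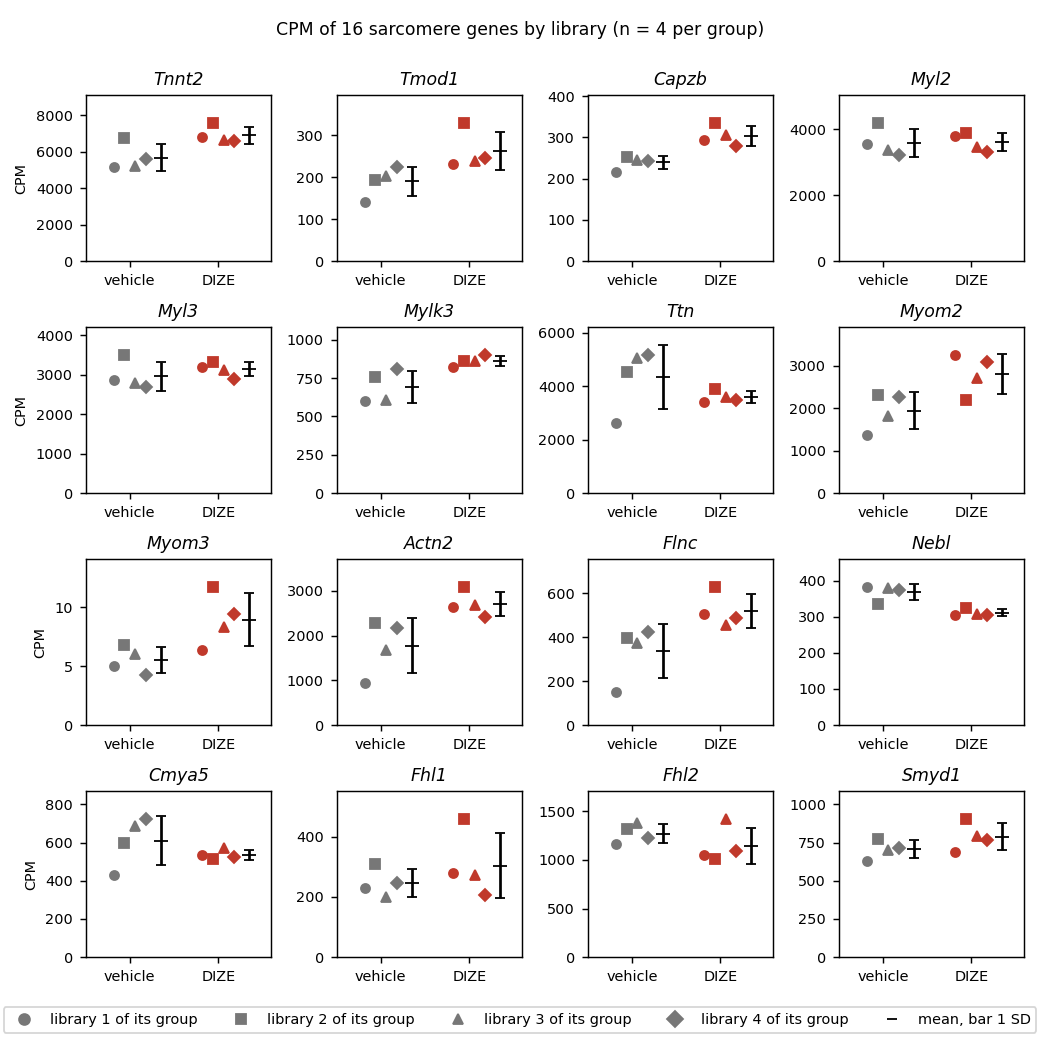
CPM of 16 of the 32 genes in each library on axes that start at 0, with a symbol for each library, the mean as a horizontal tick and a bar of 1 SD (n = 4 in each group). For Tmod1, Capzb, Mylk3, Actn2 and Flnc the DIZE libraries all lie above the vehicle libraries, and for Nebl they all lie below. Vehicle 1 is the lowest library for Ttn, Actn2 and Flnc.

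Titin and the M-band comprised Ttn and the myomesins Myom1, Myom2 and Myom3, which crosslink thick filaments in the middle of the sarcomere. The 3 myomesins lay higher with DIZE and Ttn lower, with a median log2 fold change of 0.40 over the 4 (0.26 without vehicle 1) and none called. Myom2 (chr8:15057653-15133541), the M-protein of the adult heart, stood at 1370, 2314, 1818 and 2259 CPM with vehicle and at 3251, 2180, 2720 and 3083 CPM with DIZE. The groups overlapped through DIZE 2 alone, which lay below vehicle 2 and vehicle 4. Its fold was 1.45, a log2 fold change of 0.53 ± 0.18 (SE; adjusted p = 0.16), and 0.40 without vehicle 1, its lowest library. Myom3 (chr4:135759715-135815564) is a myomesin found in some skeletal muscle fibres, and its level here was the lowest of the list. Its CPM was 5.03, 6.80, 6.03 and 4.22 with vehicle and 6.35, 11.7, 8.29 and 9.46 with DIZE. DIZE 1 lay below vehicle 2, and the other 3 DIZE libraries lay above all vehicle libraries. The log2 fold change of 0.70 ± 0.22 (SE; adjusted p = 0.15) was the largest among the 32 genes, at a level where counting error adds to the spread.

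Myom1, the ubiquitous myomesin, ranged from 1045 to 1863 CPM with vehicle and from 1653 to 2251 CPM with DIZE, with a log2 fold change of 0.27 ± 0.18 (SE), or 0.12 without vehicle 1 and 0.17 without DIZE 2. Its exons overlap those of Myl12a on the other strand, a gene at 175 CPM. The ratio of Myom2 to Myom1 was within 1.224 to 1.311 in the 4 vehicle libraries and spread from 0.968 to 1.865 in the DIZE libraries, where DIZE 2 was lowest (exact permutation p = 0.314, adjusted 0.377).

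Ttn is described here because of its spread, and was chosen after its values were seen. Ttn (chr2:76703980-76982547), the molecular spring of the sarcomere, stood at 2615, 4548, 5065 and 5173 CPM with vehicle and at 3417, 3908, 3584 and 3478 CPM with DIZE. The lowest of the 8 values was vehicle 1, the other 3 vehicle libraries were the 3 highest, and the DIZE libraries lay between. The log2 fold change was -0.27 ± 0.19 (SE; adjusted p = 0.43) with all libraries, -0.46 without vehicle 1 (adjusted p = 0.0687) and -0.18 without vehicle 4. With the trend over GC content and transcript length removed it was 0.13, so its direction depended on that choice. Cmya5 (myospryn, chr13:93040713-93144724), a large protein of the Z-disc periphery that binds titin, had a like order and was also picked after its values were seen. Its vehicle libraries held 433, 597, 689 and 723 CPM and its DIZE libraries 534, 512, 570 and 526 CPM. Vehicle 1 was again the lowest and the other vehicle libraries the highest, and the log2 fold change of -0.19 ± 0.15 (SE) turned to 0.05 with the same trend removed. It was -0.32 without vehicle 1 and -0.10 without vehicle 4. Without vehicle 1, the groups did not overlap for 5 genes that lay higher with DIZE, where 8.02% of all genes did so. They also did not overlap for 3 that lay lower, Ttn, Nebl and Cmya5, where 6.68% of all genes did so. The 5 higher genes and Nebl were already separate with all libraries. Leaving out a library cannot undo a separation, so their part of these counts was fixed in advance.

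The Z-disc and its links to the cytoskeleton made up the largest role, with 12 genes, of which 6 lay higher and 6 lower, with a median log2 fold change of 0.09 and none called. That median was 0.14 without vehicle 2, 0.05 without vehicle 3, 0.0042 without DIZE 2 and 0.17 without DIZE 4. Actn2 (chr13:12269426-12340760), the alpha-actinin that crosslinks actin in the Z-disc, stood at 940, 2294, 1687 and 2181 CPM with vehicle and at 2646, 3088, 2689 and 2425 CPM with DIZE. The groups did not overlap, and vehicle 1 held less than the other vehicle libraries by a log2 difference of -1.13. The fold was 1.53, a log2 fold change of 0.61 ± 0.23 (SE; adjusted p = 0.19), and 0.40 without vehicle 1. Flnc (chr6:29433256-29461883), filamin C, which links the Z-disc to the membrane, held 152, 395, 374 and 422 CPM with vehicle and 505, 627, 453 and 486 CPM with DIZE. Again the groups did not overlap, with vehicle 1 far below the rest. The log2 fold change was 0.62 ± 0.26 (SE; adjusted p = 0.23), and 0.38 without vehicle 1.

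Nebl (chr2:17343909-17731464) encodes nebulette, which ties thin filaments to the cardiac Z-disc. Its CPM was 382, 335, 379 and 373 with vehicle and 305, 324, 309 and 304 with DIZE. Every DIZE library lay below every vehicle library, by a small margin between DIZE 2 and vehicle 2. The means were 367 ± 22.0 and 310 ± 9.46 CPM, a log2 fold change of -0.24 ± 0.10 (SE; adjusted p = 0.21). With the GC and length trend removed the log2 fold change was -0.01. Its transcript had the lowest GC content of the 32, at 40.3%.

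The other Z-disc genes differed in direction and none had separate groups. Synpo2l, an actin-associated Z-disc protein, had the largest log2 fold change among them, 0.62 ± 0.32 (SE), where vehicle 1 stood at 74.7, DIZE 2 at 368 and the other 6 libraries at 159 to 212 CPM. Ldb3 (ZASP, a PDZ and LIM protein that binds alpha-actinin) had 0.41 ± 0.21 and Des, the intermediate filament desmin, 0.37 ± 0.16. Without vehicle 1 these 3 log2 fold changes were 0.39, 0.21 and 0.22, and without DIZE 2 that of Synpo2l was 0.32. Tcap, telethonin, which caps the end of titin at the Z-disc, had -0.33 ± 0.17, with DIZE 1 and DIZE 2 at 606 and 750.1 CPM and the other 6 libraries between 1001 and 1201 CPM. Without DIZE 1 its log2 fold change was -0.20. Pdlim5, a PDZ and LIM protein of the Z-disc, had 0.22 ± 0.15, with its highest library, DIZE 2, at 1767 CPM, and 0.06 without that library. Myoz2, which tethers calcineurin to the Z-disc, had -0.03 ± 0.11, Csrp3, the muscle LIM protein, -0.07 ± 0.10, and Pdlim3, a relative of Pdlim5, -0.14 ± 0.24. For Pdlim3, leaving out 1 library gave values from -0.33 without DIZE 2 to 0.0051 without DIZE 4.

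The titin-binding and LIM stress-sensing proteins comprised Ankrd1, Ankrd23, Fhl1 and Fhl2, with 1 higher, 3 lower and a median log2 fold change of -0.13. It was -0.08 without vehicle 3, -0.05 without DIZE 1 and -0.07 without DIZE 2. Fhl1 (chrX:56731787-56793346), a LIM protein that binds the titin spring, stood at 228, 308, 199 and 244 CPM with vehicle and at 281, 458, 271 and 205 CPM with DIZE. DIZE 2 was far above the rest and the groups overlapped. Its log2 fold change of 0.31 ± 0.22 (SE) came to 0.04 without DIZE 2. Fhl2 (chr1:43123074-43196984), a LIM protein enriched in heart muscle, held 1161, 1313, 1377 and 1223 CPM with vehicle and 1047, 1010, 1419 and 1088 CPM with DIZE. DIZE 1, DIZE 2 and DIZE 4 lay below all vehicle libraries, and DIZE 3 was the highest of the 8. The log2 fold change was -0.15 ± 0.13 (SE; adjusted p = 0.53), with -0.10 without DIZE 2 and -0.27 without DIZE 3. Ankrd1, the cardiac ankyrin repeat protein, a stress-responsive partner of titin, ranged from 1206 to 1625 CPM with vehicle and from 810 to 1931 CPM with DIZE. DIZE 1 was lowest and DIZE 2 highest of all 8 libraries, so the DIZE group bracketed the vehicle group, and the log2 fold change moved from -0.25 to -0.56 without DIZE 2, -0.09 without DIZE 1 and -0.16 without DIZE 3. Ankrd23, of the same family, was at 4.03 to 6.53 CPM, with a log2 fold change of -0.11 ± 0.22 (SE) that ranged from -0.26 without DIZE 4 to -0.01 without DIZE 1.

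The myosin chaperones and the small heat shock protein all had log2 fold changes above 0, with a median of 0.16 (0.09 without DIZE 2) and none called. Unc45b (chr11:82910550-82943403), the chaperone that folds the myosin head, stood at 132, 201, 178 and 210 CPM with vehicle and at 194, 192, 227 and 238 CPM with DIZE. Vehicle 1 was low and the groups overlapped. Its log2 fold change was 0.24 ± 0.15 (SE; adjusted p = 0.41), or 0.11 without vehicle 1. Smyd1 (chr6:71213940-71322233), a muscle methyltransferase needed for sarcomere assembly, held 629, 773, 704 and 716 CPM with vehicle and 690, 903, 791 and 768 CPM with DIZE. DIZE 2 was the highest, DIZE 1 lay among the vehicle libraries, and the log2 fold change was 0.16 ± 0.11 (SE; adjusted p = 0.46), or 0.09 without DIZE 2. Hspb7, the cardiovascular small heat shock protein, ranged from 2311 to 3993 CPM with vehicle and from 3207 to 3657 CPM with DIZE, with 0.07 ± 0.15, and -0.07 without vehicle 1.

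The libraries differed in how many of the 32 genes they held low or high. Vehicle 1 was the lowest of the 8 libraries for 17 genes, and it lay below the other 3 vehicle libraries for 21. The log2 difference of vehicle 1 from the mean of vehicle 2 to 4 was -1.38 for Flnc, -1.26 for Synpo2l, -1.13 for Actn2, -1.04 for Ldb3 and -0.91 for Ttn. For Myl2, Myl3 and Tnnc1, with short transcripts, it was -0.02, -0.06 and 0.07. Over the 9 genes with transcripts of at least 5000 bases the median of this difference was -0.64, and over the other 23 it was -0.18. Length did not order all of them. Among those 9, Nebl, Pdlim5 and Myom3 had 0.08, -0.0043 and -0.18, while the transcript of Actn2 has only 3013 bases. These counts and medians were not computed over all genes, so whether they are particular to the 32 was not tested. Vehicle 1 also had the highest atrial, fibroblast and macrophage marker sums given above, and the part of these in its levels was not tested. The Myl7 level was added only as a covariate in the edgeR fit of DIZE against vehicle. There, 19 of the 32 log2 fold changes were above 0, with a median of 0.09. Actn2 had 0.52 and Flnc 0.48. An unadjusted p of at most 0.05 was reached by 5 of the 32, against 10 without the covariate. Over all genes that share went from 19.4% to 15.6%. Myl7 was highest in vehicle 1 and lower on average with DIZE, so this fit cannot separate that library from treatment. DIZE 2 was the highest of the 8 for 14 genes, among them Synpo2l, Fhl1, Ankrd1, Pdlim5 and Tmod1. In 19 of the 32 genes the SD of the DIZE group was below that of the vehicle group.

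**Figure D4:**
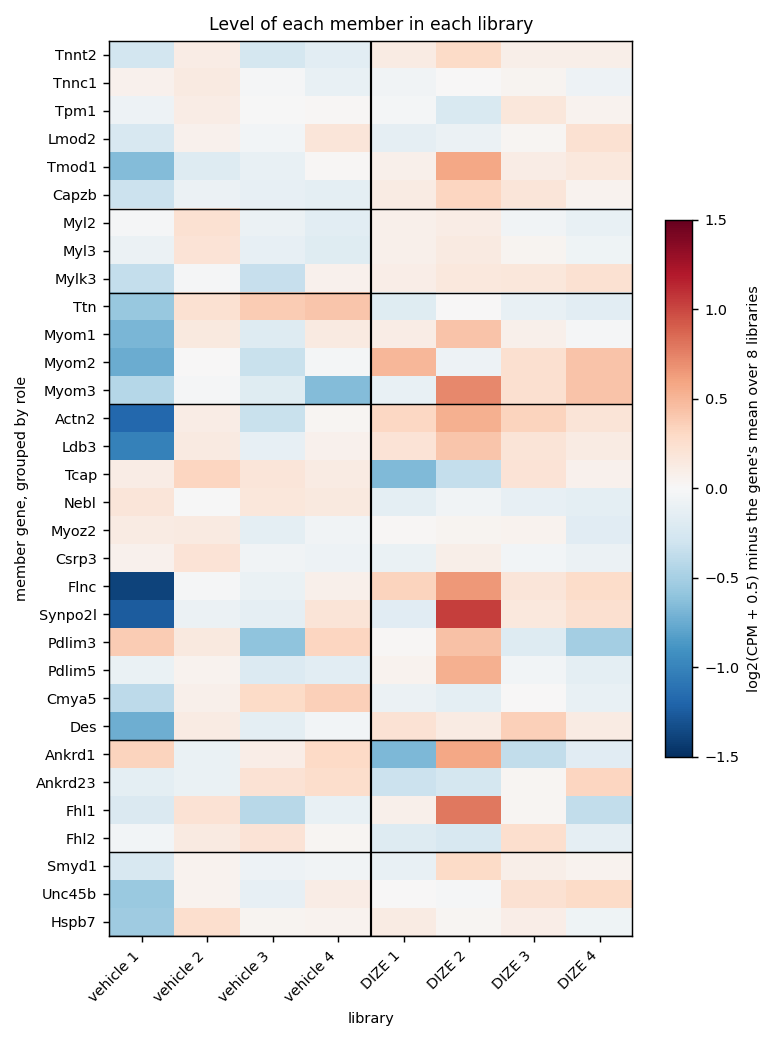
Log2 of CPM plus 0.5 in each library, less the mean of the gene over the 8 libraries, for the 32 genes grouped by role, with blue for below the mean and red for above it. Vehicle 1 is blue for Actn2, Ldb3, Flnc, Synpo2l and Des, and DIZE 2 is red for Synpo2l, Fhl1, Ankrd1 and Tmod1.

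**Figure D5:**
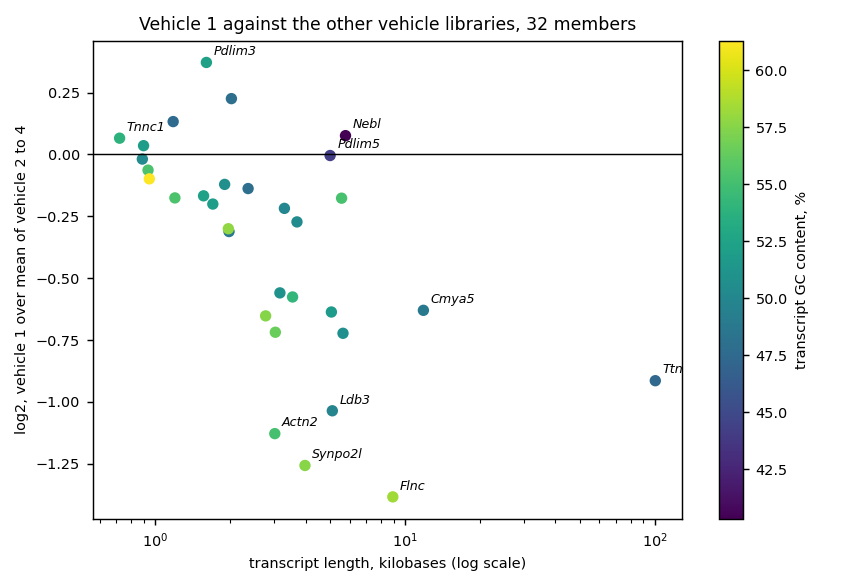
Log2 of the level in vehicle 1 over the mean of vehicle 2 to 4 for each of the 32 genes against the length of its transcript in kilobases on a log axis, with GC content as colour. Flnc, Synpo2l, Actn2 and Ldb3 lie lowest, and genes with transcripts under 1 kilobase lie near 0.

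The sample titles come in 2 forms, with and without the letters db, each with 2 vehicle and 2 DIZE libraries. What the form stands for is not stated. Vehicle 1, vehicle 2, DIZE 1 and DIZE 2 have the letters. Among libraries with the letters, the log2 fold change was 1.05 for Flnc, 1.12 for Synpo2l, 0.83 for Actn2 and 0.76 for Tmod1. Among those without, it was 0.24, 0.16, 0.40 and 0.18 for the same 4 genes. The direction of these was the same in both, and the difference between the forms was not tested. Ttn had 0.04 among libraries with the letters and -0.54 among those without. For Tcap the values were -0.72 with the letters and -0.02 without. Capzb (0.43 and 0.26), Mylk3 (0.32 and 0.32), Myom2 (0.56 and 0.51), Myom3 (0.62 and 0.81) and Nebl (-0.18 and -0.30) kept their direction in both forms. In the libraries without the letters alone, Ttn, Myom2, Cmya5 and Ankrd1 passed the test (edgeR, adjusted p from 0.013 to 0.0453, 2 libraries in each group), where 9.57% of all genes did so, and with the letters 0 of the 32 passed.

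Of 50 other sarcomere and Z-disc genes, 46 were tested, 27 of them higher with DIZE and 19 lower. Their median log2 fold change was 0.12, and 0.05 without vehicle 1. Of the 46, 0 were called by edgeR and 4 by DESeq2, which called 4.44% of all genes. An unadjusted p of at most 0.05 was reached by 10 (21.7%), near the 19.4% of all genes. The groups did not overlap for 5 (10.9%), against 12.4% of all genes, namely Speg, Mypn and Xirp1, which lay higher, and Xirp2 and Synm, which lay lower. These shares are close to or below those over all genes, apart from that of DESeq2.

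Xirp2, a Xin repeat protein that binds actin and alpha-actinin, had the smallest adjusted p, 0.0757. Its CPM was 530, 536, 729 and 663 with vehicle and 371, 397, 406 and 374 with DIZE, a log2 fold change of -0.67 ± 0.12 (SE). Its relative Xirp1 lay the other way, at 128, 362, 294 and 339 CPM with vehicle and 464, 575, 480 and 517 CPM with DIZE, with 0.86 ± 0.26 (SE; adjusted p = 0.14). With the GC and length trend removed, Xirp2 had -0.32 and Xirp1 0.77. Synm, the intermediate filament protein synemin, held 18.1, 12.1, 17.2 and 13.7 CPM with vehicle and 8.55, 7.37, 11.3 and 10.3 CPM with DIZE. Its groups were separate by a small margin between vehicle 2 and DIZE 3, with a log2 fold change of -0.69 ± 0.18 (SE; adjusted p = 0.11). Speg, a kinase of the striated muscle triad and sarcomere, held 74.9, 252, 212 and 271 CPM with vehicle and 328, 296, 338 and 316 CPM with DIZE. Mypn, myopalladin of the Z-disc, held 61.7, 193, 143 and 196 CPM with vehicle and 267, 213, 217 and 214 CPM with DIZE. For both, as for Xirp1, vehicle 1 was far below the other vehicle libraries.

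Sgcd, delta-sarcoglycan, held 25.6, 8.72, 32.5 and 10.9 CPM with vehicle and 8.55, 7.37, 9.70 and 8.29 CPM with DIZE. Vehicle 1 and vehicle 3 were far above the other 6 libraries, and the log2 fold change was -1.19 ± 0.37 (SE). Dmd, dystrophin, held 144, 142, 189 and 151 CPM with vehicle and 122, 144, 111 and 107 CPM with DIZE. Its log2 fold change was -0.37 ± 0.14, and 0.01 with the GC and length trend removed. Tpm4, a cytoskeletal tropomyosin, held 182, 85.5, 131 and 101 CPM with vehicle and 89.1, 96.2, 89.9 and 71.5 CPM with DIZE. Its log2 fold change was -0.53 ± 0.21, and -0.29 without vehicle 1, its highest library. Trim55 and Trim63 encode ubiquitin ligases of the sarcomere. Trim55 held 73.7, 127, 110 and 133 CPM with vehicle and 129, 172, 155 and 142 CPM with DIZE, with 0.43 ± 0.18, or 0.28 without vehicle 1. Trim63 held 230.4, 206, 255 and 239 CPM with vehicle and 248, 246, 325 and 348 CPM with DIZE, with 0.33 ± 0.14. The groups overlapped for these 5 genes, and their adjusted p lay between 0.14 and 0.23.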

How the data were processed

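Heart RNA of db/db mice was measured in 8 samples, 4 per treatment, by sequencing of read pairs from stranded poly(A) libraries, per the labels' protocols. The tools listed in the submitters' processing notes are STAR (2.7.3), HTSeq (version 0.6.1p1), R (4.1) and edgeR, with the build mm10. Neither annotation release nor strand setting is stated, so reads of genes that overlap on opposite strands may not have been told apart. The deposited table holds raw counts per Ensembl gene, not normalized by the authors. Columns were matched to samples through the descriptions in the labels, and symbols were matched for 55141 of 55487 genes.

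From these counts, CPM (scaled by reads in tested genes and TMM factors) and log2 fold changes were computed with edgeR 4.0.16 in R 4.3.3 (quasi-likelihood test, two-sided, robust). The SE was derived from that test, as the size of the log2 fold change divided by the square root of the F statistic. The filterByExpr function removed low genes (minimum count 10, minimum total 15), with Benjamini-Hochberg adjustment over every gene tested. The fit was tested on simulated data with 200 changed genes in each of 5 runs, where 7.66% of calls were false. Gene positions, transcript length and GC content came from GENCODE vM21 on GRCm38, the assembly of mm10, using the longest of the best-ranked principal transcripts. Counts of reads do not show which isoform was read.

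The 32 genes, the roles, the 50 other sarcomere genes and the marker lists were chosen with earlier results of these data known. Values per library are given for genes with separate groups, the 2 genes of each role with the smallest p, the 3 with the highest level per kilobase, and the 8 other sarcomere genes with the smallest p. Ttn and Cmya5, and Speg and Mypn of the other sarcomere genes, were added after their values were seen. Alternatives were DESeq2 1.42.0, limma-voom (limma 3.58.1), other scalings and filters, leaving out each library, blocks and splits by title form, a block by title number, a GC and length correction and the Myl7 level as a covariate.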

Additional observations from a re-analysis of the deposited data

Results flagged for a closer look

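For Tmod1, DIZE 2 stood at 329.59 CPM, apart from the other 3 DIZE libraries, which lay between 233 and 246 CPM. The gap to the nearest was 0.86 of the range of the group. For Myoz2, DIZE 4 stood at 767.88 CPM, below the other 3 at 879 to 901 CPM, with a gap of 0.84 of the range. These 2 were the only ones among the 64 groups of 4 tested for a library apart (Dixon's test at the 95% level), where chance flags about 1 in 20.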

How the results depend on the processing

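None of the 32 genes passed the threshold in any alternative tried except DESeq2, which called 1 (Capzb), and the fit of libraries without the letters db in their titles, which called 4. The number of genes called over all tested moved from 5 to 606 with DESeq2, 386 with no filter, 40 with the GC and length trend removed, 9 with title form as a block, 1349 in titles without db alone, and 0 with library totals only, titles with db alone or the Myl7 covariate. Leaving out 1 library gave 0 to 240 over all genes, where 240 came without vehicle 2, and 0 to 2 other sarcomere genes. Of the other sarcomere genes DESeq2 called 4, no filter 1 and titles without db alone 7. The median log2 fold change of the 32 genes stayed above 0 in every alternative run, from 0.06 to 0.19 when 1 library was left out. The number of them above 0 ranged from 18 with library totals to 25 with the GC and length trend removed. Both settings also moved the whole set of genes. Over all genes 39.3% and 53.9% lay above 0 there, with medians of -0.08 and 0.03, against 48.2% in the edgeR fit above.

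The title numbers did not pair the libraries: correlations of the deviations of same-numbered libraries were -0.079, 0.014, -0.14, 0.02 and -0.013. With title number as a replicate block, 0 genes were called over all tested and 0 of the 32, Myl2 had -0.016 and Pdlim3 0.023.

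Other genes turned direction as follows, and the cause was not tested. With library totals Lmod2 had -0.046 and Myl2 -0.053, and with no filter Tpm1 had 0.009. In titles with db alone Lmod2 had -0.030, Myl2 -0.007, Ttn 0.036 and Cmya5 0.026. In titles without db alone Tnnc1 had 0.051, Tpm1 0.11, Myoz2 0.042, Csrp3 0.0033 and Hspb7 -0.025. With the GC and length trend removed Tnnc1 had 0.041, Tpm1 0.022, Ttn 0.13, Myoz2 0.14, Csrp3 0.048, Cmya5 0.046 and Hspb7 -0.14. With the Myl7 covariate Tpm1 had 0.017, Myl2 -0.021 and Hspb7 -0.0016. Leaving out 1 library gave ranges of -0.077 to 0.0023 for Tnnc1, -0.074 to 0.059 for Tpm1, -0.060 to 0.076 for Lmod2, -0.036 to 0.099 for Myl2, -0.084 to 0.023 for Myoz2, -0.33 to 0.0051 for Pdlim3 and -0.068 to 0.17 for Hspb7. At 7447664 to 10161623 reads per library, depth limits Myom3 and Ankrd23, the genes with the fewest reads.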
